A study of Mus musculus with 12 samples.

Results

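The immunoglobulin heavy chain constant genes encode the part of an antibody that sets its class. They were taken by gene name from a table of 41128 genes measured in mouse B and T cells, and 8 names were looked up: Ighm, Ighd, Ighg1, Ighg2b, Ighg2c, Ighg3, Igha and Ighe. Values of 7 of these genes are described below, and Ighd was not analysed here. The 12 libraries form 4 groups of 3, and all come from spleens of C57BL/6J mice that were 6 to 8 weeks old and given no treatment named in the labels. Resting B cells without surface CD43 make up the first pair of groups, separated by sex, and naive CD4+ CD62L+ T cells make up the other pair. Flow sorting kept T cells with much CD62L, little CD44 and no CD25 staining. Since mice were pooled for each replicate, errors below describe a spread between pools. C57BL/6J carries Ighg2c at the place where some other strains carry Ighg2a.

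A B cell first makes IgM, and most naive B cells also carry IgD from the same primary transcript. After activation, class switch recombination deletes a stretch of DNA that includes Ighm and ends before a downstream constant gene. The same variable region is then joined to IgG, IgE or IgA. Each constant gene can also be transcribed from its own upstream promoter without a variable segment, and a choice between ends of the transcript gives a membrane-bound or a secreted protein.

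Levels are given as adjusted TPM, which per its name is a length-corrected measure of transcript abundance, so genes are set side by side per length. How it was adjusted is not given in the sources used here. Each deposited value has a lower and an upper bound, here called its interval. The summed adjusted TPM of a library ran from 561020 to 1453940, and sequencing depth is unknown. In the B cell libraries the 5 listed B cell identity genes, among them Cd79a, Cd79b, Ms4a1 and Pax5, summed to 2610 to 2972 adjusted TPM, against 0.900 to 5.34 in the T cell libraries. The 5 listed markers of T cell identity (Tcf7, Lck, Cd4, Cd3d and Cd3e) summed to 1017 to 1194 in T cells and 9.76 to 14.1 in B cells. All 5 B cell genes were called higher in B cells and all 5 T cell genes higher in T cells, so the labels held in every library.

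Ighm dominated the summed signal of the 7 constant genes in resting B cells, a sum that leaves out Ighd. Ighm, which encodes the mu chain of IgM (GRCm38 chromosome 12, minus strand, 113418558 to 113422730), was at 2443, 2753 and 2408 adjusted TPM in the female and 2996, 2566 and 2544 in the male B cell pools. The highest pool was 1.24 times the lowest. Within a library, the bounds of the interval for Ighm differed by a factor of only 1.02 at the median, so the differences between pools exceed the precision stated for a value. Ighm made up 98.4% to 99.4% of the summed signal of the 7 genes in the 6 B cell libraries, with a mean of 98.7% ± 0.43 (SD, n = 6).

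The table lists Ighm with 2 transcripts, which in the GENCODE M21 annotation are the secreted and the membrane form. They share their first coding exons and differ at the end. The coding ends are shown because they decide whether the mu chain is released or held in the membrane, which a value per gene cannot tell. In the secreted end (chr12:113420870-113420928) the capitals mark the codon of the cysteine that links IgM units into a polymer. In the membrane end (spliced from within chr12:113418829-113419068) the capitals mark the bases of the last coding exon.
Ighm secreted end: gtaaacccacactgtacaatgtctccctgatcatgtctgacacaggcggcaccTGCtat
Ighm membrane end: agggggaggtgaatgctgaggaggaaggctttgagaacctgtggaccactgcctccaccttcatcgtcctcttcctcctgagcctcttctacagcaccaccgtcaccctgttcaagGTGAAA

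The 4 IgG genes were all present at low levels in resting B cells. Ighg2b (113302965 to 113307933) had the highest of these levels, with 6.32, 19.1 and 12.8 adjusted TPM in female and 21.5, 18.1 and 7.46 in male pools. Ighg2c (113285325 to 113288932) was at 1.24, 13.5 and 5.02 in female and 8.74, 8.06 and 3.79 in male pools, so its highest pool was 10.9 times its lowest. By the ratio of highest to lowest pool, Ighg2c varied more than any other constant gene past the filter on low values. That ratio rests on its lowest pool, female B cell 1, with an interval of 0.704 to 1.86. Ighg3 (113356224 to 113361232) was at 2.66, 7.94 and 4.99 in female and 6.30, 3.96 and 6.42 in male pools. Ighg1 (113325240 to 113330523), which encodes the chain of IgG1, was at 1.34, 2.45 and 1.37 in female and 4.55, 3.76 and 0.772 in male pools. The IgG genes summed to 11.6 to 43.1 adjusted TPM per B cell library.

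The IgG chains differ most visibly in the hinge, the flexible stretch whose cysteines bond heavy chains to each other. The 4 hinge exons are given because they show how far apart these genes are in sequence, which bears on whether reads of one gene can be told from those of another. Each is the second coding exon, written in the direction of transcription from GRCm38, and capitals mark the cysteine codons. They hold 1 such codon in Ighg3 (chr12:113360529-113360576), 4 in Ighg1 (chr12:113329844-113329882), 4 in Ighg2b (chr12:113307261-113307326) and 3 in Ighg2c (chr12:113288263-113288325).
Ighg3 hinge: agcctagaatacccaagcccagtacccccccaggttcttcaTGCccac
Ighg1 hinge: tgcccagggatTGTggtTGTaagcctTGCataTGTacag
Ighg2b hinge: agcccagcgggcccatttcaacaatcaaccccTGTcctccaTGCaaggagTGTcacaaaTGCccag
Ighg2c hinge: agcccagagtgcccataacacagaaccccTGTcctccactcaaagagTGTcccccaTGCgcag

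Outside the hinge, Ighg2b and Ighg2c are close relatives. The coding sequences of their secreted forms are 85.7% identical, and the transcripts in the table share a run of 78 bases in the third coding exon (chr12:113306869-113306946 in Ighg2b and chr12:113287869-113287946 in Ighg2c), shown in capitals with the bases beside it in lower case.
Ighg2b shared run: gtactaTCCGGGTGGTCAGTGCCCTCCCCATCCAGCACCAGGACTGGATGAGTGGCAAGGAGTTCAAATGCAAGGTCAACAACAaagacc
Ighg2c shared run: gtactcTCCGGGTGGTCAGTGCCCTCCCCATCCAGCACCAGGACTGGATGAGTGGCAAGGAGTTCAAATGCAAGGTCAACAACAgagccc
Windows of 50 bases found in both transcripts made up 5.85% of the windows of Ighg2b and 4.82% of those of Ighg2c. No other pair among the 7 genes shared a window of that length. How the authors' quantification divided reads from shared stretches is not given in the sources used here, so the split between these 2 genes is uncertain to that extent.

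IgA transcripts were at a level like that of Ighg3, and IgE transcripts were close to the limit of what was measured. Igha (113254830 to 113260236), the constant gene of the class secreted at mucosal surfaces, was at 3.86, 2.70 and 12.8 adjusted TPM in female and 5.88, 5.60 and 3.30 in male B cell pools. A single pool, female B cell 3, stood above the rest. Ighe (113269260 to 113273248), the constant gene of the class that binds mast cells, was at 0.0796, 0.210 and 0.255 in female and 0.795, 0.0182 and 0.0408 in male pools. Its intervals spanned a factor of 15.6 at the median, and it did not reach 1 adjusted TPM in any library, so it was left out of the tests across genes.

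**Figure D1:**
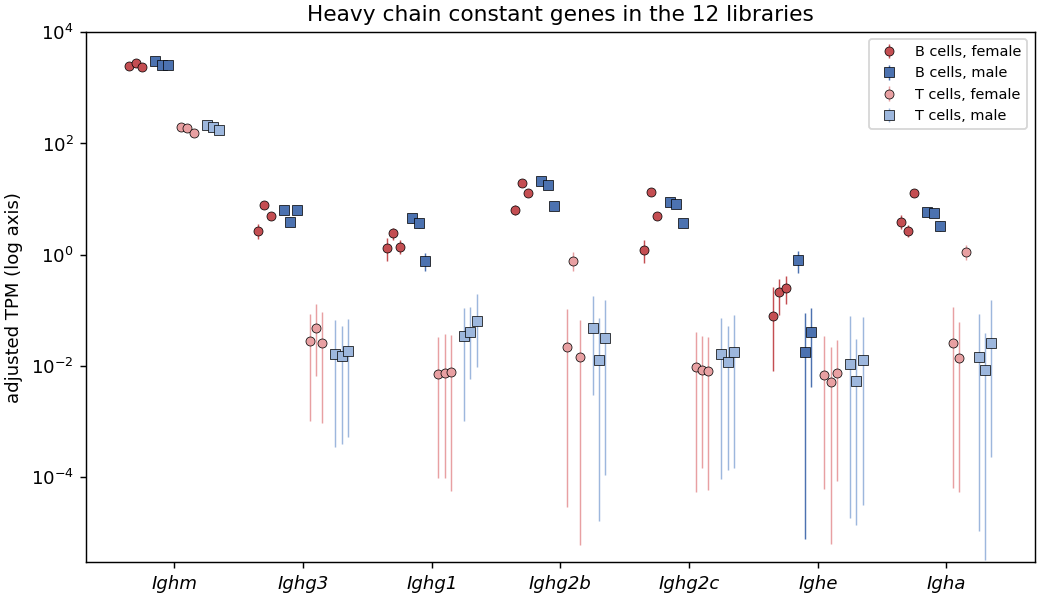
Adjusted TPM (log axis) of the 7 constant genes in each library, as circles for female and squares for male pools, darker for B and paler for T cells, with bars for the deposited interval. Ighm sits at 2408 or above in every B and at 157 or above in every T cell library, while the intervals of the other genes in T cells span a factor of 19.5 or more except for Ighg2b in female T cell 5 and Igha in female T cell 6.

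The order of the levels in B cells was tested within libraries, between neighbours in the order of the means. That order was taken from the same 6 libraries, so the p-values are not independent evidence for it. Ighm (2618 ± 221, SD, n = 6) stood above Ighg2b (14.2 ± 6.35), which stood above Ighg2c (6.73 ± 4.33). Igha (5.69 ± 3.71) and Ighg3 (5.38 ± 1.90) followed, then Ighg1 (2.37 ± 1.504) and Ighe (0.233 ± 0.291). In 4 of the 6 neighbouring pairs the first gene was higher in 6 of 6 libraries, with a two-sided exact sign-flip permutation p of 0.03125, the smallest that 6 libraries allow, and an adjusted p of 0.046875. Ighg2c was higher than Igha in 4 of 6 libraries (exact p = 0.906, adjusted p = 0.9375). Igha was higher than Ighg3 in 3 of 6 (exact p = 0.9375, adjusted p = 0.9375), so the order within Ighg2c, Igha and Ighg3 did not exceed the spread between pools.

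Levels did not follow the position of the genes on the chromosome. Downstream of Ighm the constant genes follow in the order Ighd, Ighg3, Ighg1, Ighg2b, Ighg2c, Ighe and Igha, and the start of Igha lies 162.5 kb from that of Ighm. Ighg3, the first of the 6 switched genes at 61.5 kb, had a mean level in B cells below those of Ighg2b at 114.8 kb and Ighg2c at 133.8 kb. Ighe at 149.5 kb was the lowest, beside Igha with its mean of 5.69 adjusted TPM.

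**Figure D2:**
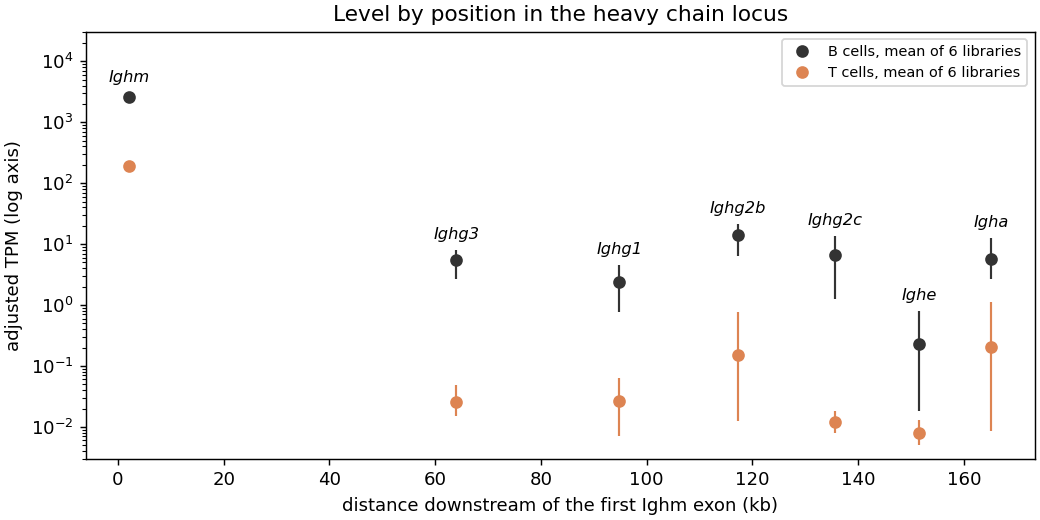
Mean adjusted TPM (log axis) of each constant gene over 6 B and 6 T cell libraries, with lines from the lowest to the highest library, against the distance in kb from the first exon of Ighm to the middle of each gene. Ighg2b at its mean of 14.2 is the highest of the switched genes in B cells, and Ighe at 0.233 the lowest.

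The transcripts behind these values are not alike. In GENCODE M21, the 6 switched genes are each listed in the table with 1 transcript, which is the secreted form for 5 of them (Ighg1, Ighg2b, Ighg3, Ighe and Igha) and the membrane form for Ighg2c. The table carries older versions of these transcript identifiers, so their exact ends in the authors' annotation are not known. The level of Ighg2c beside the other IgG genes therefore rests on a different end of the gene.

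Ighm, Ighg1, Ighg2b, Ighg2c, Ighg3 and Igha were called higher in B than in T cells. Across the 12520 genes with at least 1 adjusted TPM in at least 3 libraries, 73% were called different between the cell types at an adjusted p under 0.05 and 31.4% were called higher in B cells. These come from limma with Benjamini-Hochberg adjustment, as does each adjusted p of a gene below. With every library rescaled to the same total, the calls moved from 3926 higher in B and 5208 higher in T cells to 4812 and 1985, and the median difference of all genes moved from -0.09 to 0.25, which is small beside the differences of the constant genes. The 5 switched genes passed the filter through their values in B cells, so their number is not evidence of a direction. With no filter, 7 constant genes were tested and 6 were called, all but Ighe. Of all 41128 genes, 24591 were then called, 12247 of them higher in B cells. That fit also called 10985 genes between the sexes in B cells, against 18 with the filter, so it is a weak check. In bulk samples, fewer cells of a type and less RNA per cell cannot be told apart.

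For the switched genes the T cell libraries were mostly near 0. Ighg2b was between 0.0126 and 0.779 adjusted TPM in T cells and differed by 3.63 (SE 0.27) on the scale of log2(adjusted TPM + 1), with an adjusted p of 7.49e-08. Ighg2c was between 0.00805 and 0.0180, and differed by 2.71 (SE 0.35, adjusted p = 1.34e-05). Ighg3, between 0.0149 and 0.0483, differed by 2.58 (SE 0.18, adjusted p = 2.85e-08), and Igha, between 0.00853 and 1.13, by 2.39 (SE 0.29, adjusted p = 9.04e-06). Ighg1 had the smallest difference, 1.60 (SE 0.23, adjusted p = 3.68e-05), with T cell values between 0.00706 and 0.0632. The pseudocount of 1 understates these differences, and no ratio is given for them because the intervals in T cells span a factor of 117 to 2559 at the median for these 5 genes.

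No T cell library reached the lowest B cell library for any of the 7 genes. Of all tested genes, 53.9% had no overlap between the cell types and 24.2% had none with the higher values in B cells. The switched genes other than Ighe passed the filter through their values in B cells, and Ighe did not pass it. The count over the 7 genes is therefore not evidence of a direction. For Ighe, the B cell values from 0.0182 to 0.795 lay above T cell values from 0.00510 to 0.0129, but the intervals of the cell types overlapped, with a highest upper bound of 0.0807 in T cells and a lowest lower bound of 7.70e-06 in B cells.

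Ighm differed from the other constant genes in its level in T cells. It was at 197, 189 and 157 adjusted TPM in the female and 215, 200.4 and 172 in the male T cell pools, with interval bounds that differed by a factor of 1.05 at the median. The mean of 188 ± 20.6 (SD, n = 6) was 7.19% of the mean in B cells, a 13.9-fold difference. On the log2 scale the difference was 3.79 (SE 0.09, 95% interval 3.59 to 4.00, adjusted p = 7.14e-13). T cell pools therefore held Ighm at a higher level than B cell pools held any switched constant gene.

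Genes of the same receptor were far lower in T cells. Igkc, the kappa light chain constant gene, was at 0.0994% of its B cell mean, and Iglc2, a lambda constant gene, at 0.101%. Cd79a and Cd79b, the signalling partners of surface immunoglobulin, were at 0.189% and 0.0860%. Ms4a1, which encodes CD20, was at 0.0672%, and Pax5, a transcription factor of B cell identity, at 0.000546%. The 105 heavy chain variable segments that matched GENCODE M21 summed to 885 to 1122 adjusted TPM in B cells. In T cells they summed to 3.69 to 5.42, or 0.466% of the B cell mean. Segments without a match, such as Ighv1-15, were left out of this sum. The 4 joining segments reached at most 0.0736 adjusted TPM in any library. Diversity segments were looked at only from Ighd4-1 to Ighd2-3, and these 16 reached at most 0.114.

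**Figure D3:**
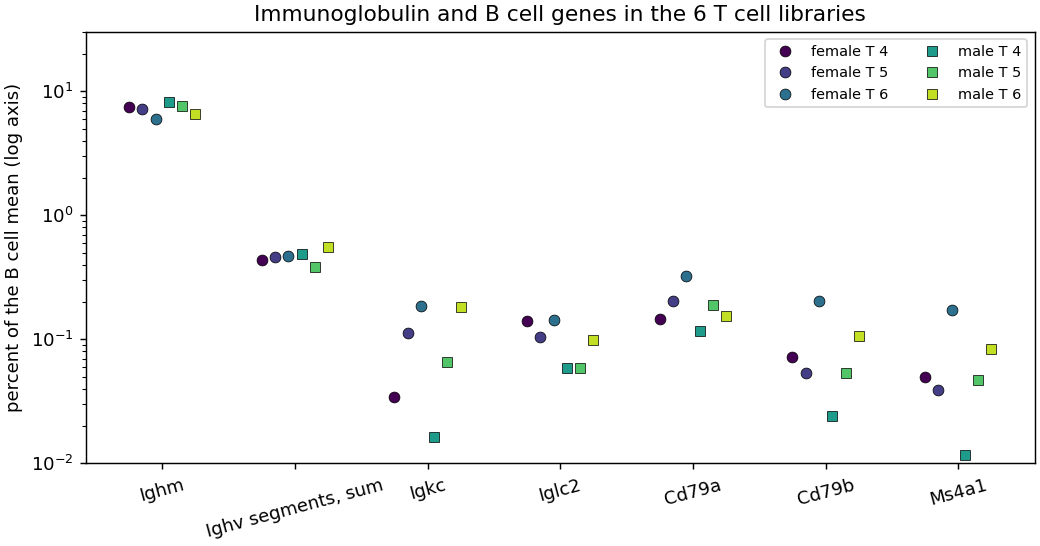
Level in each of the 6 T cell libraries as a percent of the B cell mean (log axis). Shown are Ighm, the sum of the 105 matched heavy chain variable segments, and 5 genes of the B cell receptor or B cell surface. Circles mark female and squares male pools. Ighm lies between 6.01% and 8.20%, and every other gene or sum shown is at 0.5596% or below.

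In adjusted TPM, the T cell pools were ordered otherwise by Ighm than by the B cell genes. The library female T cell 6 had the highest sum of B cell identity genes among T cells, 5.34, and the lowest Ighm, 157. The library male T cell 4 had the lowest sum, 0.900, and the highest Ighm, 215. The other 4 T cell pools had sums of 1.86 to 2.60 with Ighm at 172 to 200.4. The order depends on the scaling. As a percent of the library total, the 7 constant genes, mostly Ighm, were lowest in male T cell 6 (0.0118%) and highest in male T cell 5 (0.0233%). The part of residual B cells in the values of Ighm and the switched genes in T cells was not tested. The summed level of the 4 myeloid marker genes was also highest in female T cell 6, at 4.74 against 1.08 to 2.68 in the other T cell pools.

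As a share of the summed signal of the 7 constant genes, which leaves out Ighd, Ighm was higher in T than in B cells. It made up 99.2% to 99.95% in T cells with a mean of 99.8% ± 0.29 (SD, n = 6), 1.04 points above B cells (two-sided exact permutation p = 0.00433, adjusted p = 0.0152). A share within a library does not depend on the scaling between libraries. The shares of a library add up to the whole, so a higher share of Ighm is a lower summed share of the switched genes. Ighg1, Ighg2b, Ighg2c and Ighg3 each had a larger share in B cells, with adjusted p from 0.0152 to 0.0182 by the same exact permutation test. With upper bounds in place of the values, Ighg1 was no longer past the threshold (adjusted p = 0.133, exact permutation test). For Igha, 0.219% ± 0.155 in B and 0.127% ± 0.288 in T cells, the shares did not differ beyond the spread (exact p = 0.491, adjusted p = 0.778, n = 6). That result rests on female T cell 6, without which the share in T cells was 0.00941% (exact p = 0.00433, adjusted p = 0.0152). Ighe had mean shares of 0.00826% in B and 0.00434% in T cells (exact p = 0.422, adjusted p = 0.778), and its direction depended on the value used. From lower bounds the shares were 0.00411% in B and 2.11e-05% in T cells (exact p = 0.0152, adjusted p = 0.0354), and from upper bounds 0.0144% and 0.0233% (exact p = 0.219, adjusted p = 0.510).

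No constant gene was called between the sexes, and no test paired the T cell libraries alone by their numbers. Within B cells, 0.144% of all tested genes were called between females and males, and 0 of the 6 constant genes were, none of them at an unadjusted p under 0.05 in limma. Ighm had a female minus male log2 difference of -0.09 with a 95% interval of -0.38 to 0.20. The intervals of the switched genes were wider, from -1.13 to 0.27 for Ighg1, -1.12 to 0.57 for Ighg2b, -1.44 to 0.70 for Ighg2c, -0.70 to 0.39 for Ighg3 and -0.79 to 1.02 for Igha. The interval of Ighg2c was the widest and that of Ighm the narrowest.

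No gene among the 7 separated the sexes in B cells without overlap, where 7.2% of all tested genes did. For the shares of the constant genes in female and male B cells, exact permutation p ran from 0.4 to 1, but 3 pools against 3 cannot go below 0.1, so no share could pass the threshold. Within T cells, 0.104% of all tested genes were called and 0 of the 6 constant genes were. Ighm had a difference of -0.11 (95% interval -0.40 to 0.18), and the others lay between -0.05 and 0.36. Same-numbered T cell libraries deviated together, and Ighm was higher in the male library of 3 of 3 numbers, with female minus male log2 differences of -0.12, -0.09 and -0.13. In limma with a replicate block on the numbers of all 12 libraries, the interval was -0.38 to 0.16 and the adjusted p 0.99993. Its spread was estimated over both cell types, so it is not a paired test of the T cell libraries alone. Within T cells, 3 of 7 genes separated the sexes without overlap, where 8.49% of all tested genes did. These were Ighg1 and Ighg2c, higher in males, and Ighg3, higher in females. All their T cell values lay between 0.00706 and 0.0632 adjusted TPM, and the intervals of the sexes overlapped. The difference between the sex effects in B and T cells was called for 0% of genes and for 0 of the 6 constant genes, by limma, with 295 of 12520 genes and none of the 6 at an unadjusted p under 0.05.

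**Figure D4:**
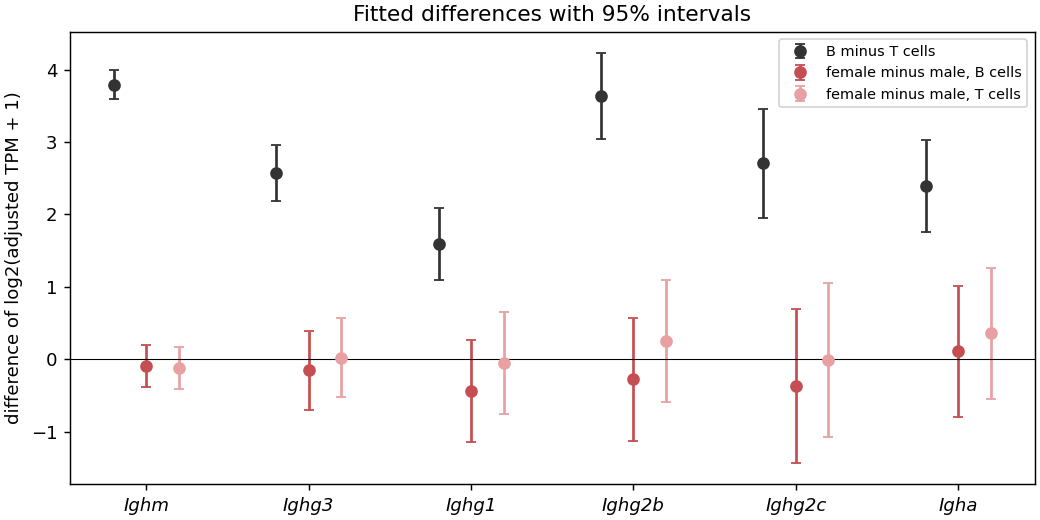
Fitted difference of log2(adjusted TPM + 1) for the 6 tested constant genes, with 95% intervals, for B minus T cells (black) and for female minus male within B cells (red) and T cells (pink). The differences between cell types lie between 1.60 and 3.79 with intervals above 0, and every interval between the sexes includes 0. The ranking of the genes depends on the pseudocount of 1. With 0.1 in its place, Ighm had the smallest of the 6 differences between cell types, 3.80, and Ighg2b the largest, 6.23.

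The IgG genes varied more between B cell pools than Ighm did. Ighg1, Ighg2b and Ighg2c each had their 3 highest values in female B cell 2, male B cell 1 and male B cell 2. Their lowest values were in female B cell 1 for Ighg2b and Ighg2c and in male B cell 3 for Ighg1. Ighg3 differed in part, with its second highest value in male B cell 3. Ighm also had its 3 highest values in adjusted TPM in the pools male B cell 1, female B cell 2 and male B cell 2. Its highest pool was only 1.24 times its lowest. That order and range depend on the scaling. As a percent of the library total, the 7 constant genes, mostly Ighm, were highest in female B cell 3, at 0.436%. That pool had the lowest Ighm in adjusted TPM. The smallest percent, 0.246%, was that of female B cell 1.

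Gcsam, Mybl1, S1pr2 and Fas are known from germinal centres, where activated B cells mutate and switch their antibody genes. In adjusted TPM, each had its 3 highest values in female B cell 2, male B cell 1 and male B cell 2. Gcsam, a signalling adaptor named for germinal centre B cells, was at 1.31, 4.69 and 1.61 adjusted TPM in female and 2.37, 2.22 and 0.646 in male pools. Mybl1, a transcription factor of these cells, was at 2.50, 5.18 and 2.78 in female and 4.17, 3.62 and 1.06 in male pools. S1pr2, a receptor that keeps cells within the follicle, was at 0.798, 3.02 and 1.18 in female and 1.81, 1.87 and 0.530 in male pools. Gcsam, Mybl1 and S1pr2 had their lowest value in male B cell 3, as Ighg1 did. Fas, a death receptor, was at 2.19, 3.83 and 3.41 in female and 4.16, 4.38 and 2.61 in male pools. Bcl6, the defining transcription factor of the germinal centre, followed another order, with 27.3, 34.8 and 19.8 in female and 25.9, 32.5 and 30.9 in male pools. The 6 listed germinal centre genes summed to 30.8 to 56.0 in B cells and 22.9 to 25.3 in T cells, where Fas was higher than in B cells and S1pr2 was not called (adjusted p = 0.250). With 6 pools whose values share a scaling, this is a description, and the part of germinal centre cells in the IgG values was not tested.

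Igha varied in another order. Its highest pool, female B cell 3, ranked 4 of 6 for Gcsam and Mybl1, and Igha was lowest in female B cell 2, where both were highest. The plasma cell genes differed from each other in their highest pool. Prdm1, a transcription factor of antibody secreting cells, was highest in female B cell 3 (0.932) and lowest in female B cell 2 (0.521), as Igha was. Igj, the chain that joins IgA and IgM into polymers, was at 50.7, 81.7 and 104 in female and 131, 109.6 and 110.4 in male pools. Mzb1, a chaperone of IgM assembly, was between 85.6 and 124. In adjusted TPM, its 3 highest values were in the same 3 pools as those of Ighg1, Ighg2b and Ighg2c. Sdc1, the plasma cell surface marker CD138, was between 5.48 and 6.82 and highest in female B cell 2. The 7 plasma cell genes summed to 245 to 366 in B cells and 28.0 to 34.7 in T cells. Of the 6 tested, 5 were called higher in B cells, as were 31.4% of all tested genes, and Prdm1 was higher in T cells. Tnfrsf17, the receptor BCMA of long-lived plasma cells, was at most 0.308 in B cells, in male B cell 3. The part of plasma cells in the Igha values was not tested.

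**Figure D5:**
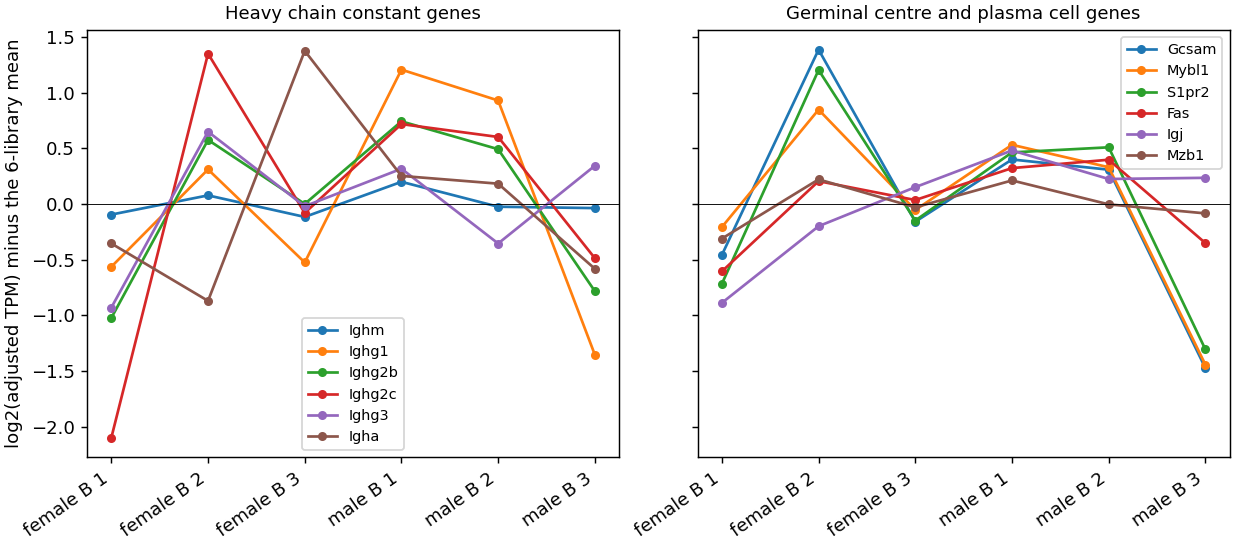
log2 adjusted TPM minus the mean of the 6 B cell libraries, for 6 constant genes on the left and 6 germinal centre or plasma cell genes on the right, with 1 line per gene and 1 point per library. Ighm stays within 0.20 of its mean, Ighg2c runs from -2.10 to 1.35, and Gcsam from -1.47 to 1.39.

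The genes that switching needs were set beside the constant genes by lists of their roles. Of 8 genes of heavy chain transcription and of the choice between IgM, IgD and secreted forms, 5 were called higher in B cells, 2 higher in T cells and 1 was not called, where 73% of all tested genes were called and 31.4% were higher in B cells. The median log2 difference was 3.17 against -0.09 over all genes. The first group comprised Ebf1 (6.79), Pou2af1 (5.42) and Pou2f2 (3.69), transcription factors that act on immunoglobulin genes, Zfp318 (3.21), which is needed for IgD, and Ell2 (3.12), an elongation factor that favours the secreted form. Hnrnpll, a splicing regulator (-4.20), and Ikzf1, which encodes Ikaros (-0.80), were higher in T cells. Cstf2, a cleavage factor at polyadenylation sites, differed by 0.02 and was not called (adjusted p = 0.835).

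Repair genes that act in switching showed smaller differences. Of those in base excision, Apex2, an endonuclease, was higher in B cells (0.25), Ung, a uracil glycosylase, was higher in T cells (-0.46), and Apex1, Smug1 and Polb were not called. Of those in mismatch repair, Exo1, an exonuclease, was higher in B cells (0.84), and Pms2 (-0.37) and Msh6 (-0.28) were higher in T cells.

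Of 17 genes of the break response and end joining, 5 were called higher in B cells, 6 higher in T cells and 6 were not called, with a median of -0.04, where 73% of all tested genes were called. The largest differences were those of H2afx (0.85), the histone marked at breaks, Dclre1c (0.77), which encodes the nuclease Artemis, and Mdc1 (0.49), and in the other direction Xrcc4 (-0.99), a ligase partner, Nbn (-0.68) and Rif1 (-0.64). Of 15 receptors and factors that direct switching, 7 were called higher in B cells, 5 higher in T cells and 3 were not called, with a median of 0.09, again beside 73% of all tested genes. Cd40 (5.86), the receptor of T cell help, Tlr9 (4.69) and Tlr4 (4.08) led in B cells, and Batf (-1.09) and Smad3 (-0.77) were higher in T cells.

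For each tested constant gene, the 3 genes with the most similar profile over the 12 libraries were found by the root mean square difference of log2(adjusted TPM + 1), each gene centred on its mean. Most of any such likeness comes from the shared difference between B and T cells, so the measure is a description. For Ighm these were Il12a (0.13), a cytokine subunit gene, and 2 heavy chain variable segments (0.13 and 0.14). This closeness depends on the pseudocount of 1. Il12a had means of 13.2 adjusted TPM in B and 0.00339 in T cells, against 2618 and 188 for Ighm. The 2 segments were likewise near 0 in T cells, with means of 0.0333 and 0.0401. For Ighg1 they included Mybl1 (0.27) and Hist1h2bp (0.29). For Ighg2b they were a kappa variable segment (0.35), Sema7a (0.37) and Hist1h2ab (0.39), and for Ighg2c Ffar2 (0.40), a kappa variable segment (0.41) and Hist1h2bm (0.42). For Ighg3 they were a kappa variable segment (0.14), I830077J02Rik (0.14) and Ffar2 (0.16), and for Igha a heavy chain variable segment (0.36), Ackr2 (0.44) and Mgst1 (0.44). Variable segments of either chain were thus among the 3 for each gene other than Ighg1.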

How the data were processed

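RNA of splenic B and T cells was sequenced from strand-specific libraries freed of ribosomal RNA. Groups came from the labels. The signal deposited by the authors is an adjusted TPM per gene and library with a lower and an upper bound. The submitters' processing notes name Trim Galore, FastQC, STAR and mm10, without roles. The quantification tool, the adjustment and the level of the bounds are not given in the sources used here. The values are not read counts, so depth is unknown and precision was read from the bounds.

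Genes with at least 1 adjusted TPM in at least 3 libraries (12520) were fitted with limma 3.58.1 in R 4.3.3 on log2(adjusted TPM + 1), with a mean-variance trend, 1 coefficient per group and Benjamini-Hochberg adjustment over all of them, two-sided. Contrasts were B minus T cells, female minus male within each cell type, and the difference between these. Calls are at an adjusted p under 0.05. Shares and the order of levels were tested with exact permutation tests over libraries in Python 3.11.15 with numpy 2.4.6 and scipy 1.17.1, and plots used matplotlib 3.10.9. The fits were tested on simulated data. Positions, transcript forms and sequences come from GENCODE M21 and GRCm38, to which 40254 gene identifiers (97.9%) matched, and sequences were aligned with biopython 1.88.

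The labels give both sexes the numbers 1 to 3 in B and 4 to 6 in T cells without saying what a number marks. Deviations from the group means correlated between same-numbered females and males with r of 0.72, 0.55 and 0.52 in T cells, over 0.1 in every pair, and of -0.17, -0.04 and -0.34 in B cells, so the numbers pair the T cell libraries only, and this pairing is seen in the data and not stated. Named genes are the members, genes of lists with at most 8 members, the 3 largest changes in each direction of longer lists, and the 3 genes most like each member. The members and lists were chosen with earlier results of these data known. Some genes that these rules select are not reported here. Alternatives changed the pseudocount, the filter, the scaling, the trend, the value within the bounds and the libraries used. The planned ratio of Ighd to Ighm was not computed, since Ighd was not analysed here.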

Additional observations from a re-analysis of the deposited data

Results flagged for a closer look

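In 4 cases a single library stood far from the other 5 of its cell type, by a gap to the next value that was large against the whole range. If values were normally distributed, chance would give such a gap in about 1 in 20 groups. The gaps were taken on adjusted TPM without a log scale, and 14 groups were looked at. Igha was at 12.8 adjusted TPM in female B cell 3, where the next highest B cell library had 5.88. Ighe was at 0.795 in male B cell 1, with an interval from 0.477 to 1.17, where the next highest had 0.255. Ighg2b was at 0.779 in female T cell 5, with an interval from 0.515 to 1.11, where the next highest T cell library had 0.0478, and Ighg1, Ighg2c and Ighg3 were at 0.00746, 0.00836 and 0.0483 in the same library. Igha was at 1.13 in female T cell 6, with an interval from 0.790 to 1.51, where the next highest had 0.0263.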

How the results depend on the processing

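The 6 constant genes tested were called higher in B cells under each of 21 settings, with log2 differences of 3.75 to 4.18 for Ighm, 3.47 to 6.23 for Ighg2b, 2.38 to 5.61 for Ighg2c, 2.40 to 5.37 for Ighg3, 2.11 to 4.86 for Igha and 1.36 to 4.07 for Ighg1. Of all 12520 genes, 3926 were called higher in B cells in the main fit and 4812 with equal totals. With no filter it was 12247 of 41128. Since the 5 switched genes passed the filter through their B cell values, their number is not evidence of a direction. No constant gene was called between the sexes under any setting. With the replicate block the counts stayed at 0 of 6 within B cells, within T cells and for their difference, and the block was not run for the other comparisons. Over all genes it moved the calls between the sexes from 18 to 14 in B cells and from 13 to 10 in T cells. The number of constant genes whose share differed between the cell types was 5, and 4 to 6 with other bounds or a library left out. Since the shares of a library add up to the whole, these are not separate results. The number of neighbouring pairs past the threshold in the order of levels fell from 4 to 0 whichever B cell library was left out, because 5 libraries cannot give an exact p below 0.0625. Over all genes, calls between the sexes moved from 18 to 36 in B cells and from 13 to 23 in T cells with equal totals, and to 10985 and 10607 with no filter.

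In the uncalled sex comparisons 19 of 390 values changed sign. With equal totals the sex difference of Ighm in T cells was 0.18 and the difference between its sex effects -0.34, and the same 2 values resulted with equal totals outside antigen receptor genes. Leaving out each library in turn gave female minus male differences in B cells from -0.71 to 0.12 for Ighg2b, -1.03 to 0.32 for Ighg2c and -0.46 to 0.18 for Ighg3, positive only without female B cell 1, and from -0.45 to 0.50 for Igha, negative without female B cell 3 or male B cell 3. In T cells Ighg2b ran from -0.017, without female T cell 5, to 0.39. The difference between the sex effects ran from -0.074 to 0.11 for Ighm, -1.02 to 0.33 for Ighg2c, -0.49 to 0.16 for Ighg3 and -0.81 to 0.14 for Igha. The intervals of all these differences included 0 with every library, and the cause of the changes of sign was not tested.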

Other observations

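Markers of other spleen cells were low beside Ighm in both cell types. The 4 myeloid genes summed to 8.98 to 13.4 adjusted TPM in B cells and 1.08 to 4.74 in T cells, and the 2 of them that were tested, Lyz2 and Cd68, were called higher in B cells. The 2 natural killer cell genes Ncr1 and Klrb1c summed to at most 0.788 in any library. The 4 genes listed for memory B cells summed to 7.27 to 10.3 in B cells and 9.22 to 20.2 in T cells, where Nt5e was higher, while Pdcd1lg2 was higher in B cells and Cd80 and Zbtb32 were under the filter. The erythroid genes Hbb-bs and Alas2 summed to 0.564 to 157 in B cells, lowest in female B cell 1 and highest in male B cell 1, and to 2.02 to 33.2 in T cells. Those 2 libraries were also the lowest and the highest of the B cell pools for Ighg2b and Igj, and the part of erythroid cells in these values was not tested.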
